A study of Homo sapiens with 16 samples.

Results

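The 9 genes described here encode laminin chains: the alpha chains LAMA1, LAMA2, LAMA3, LAMA4 and LAMA5, the beta chains LAMB1, LAMB2 and LAMB3, and the gamma chain LAMC1. They were chosen by gene name, and all 9 were found among the 60606 gene names of the count tables. Polyadenylated RNA had been sequenced from a pair of human kidney cancer lines, giving 16 libraries in 6 groups. In the 786-O line, cells with SETD2 knocked out (KO, labelled null) and SETD2 wild-type (WT) cells had each been kept for 72 h in DMSO, the vehicle, or in A1331852 at 100 nM, which blocks the anti-apoptotic BCL-XL, giving 4 groups of 3 libraries. In the A498 line, given no treatment, 2 libraries were labelled SETD2 deficient and 2 SETD2 add-back. SETD2 encodes the enzyme that trimethylates lysine 36 of histone H3. Both lines are established lines of clear cell renal carcinoma, and all groups grew in the same medium. Whether the KO cells were a single clone, and how SETD2 was restored in A498, is not given in the sources used here.

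Laminins are secreted trimers of an alpha, a beta and a gamma chain. They polymerise into the sheet that underlies every epithelium as part of the basement membrane, where collagen IV, nidogen and perlecan are joined to it. The large globular end of the alpha chain binds integrins and dystroglycan on the cell, so the alpha chain largely sets which receptors a trimer engages. In the kidney, laminins line tubules and glomeruli, and loss of the beta-2 chain causes a congenital nephrotic syndrome.

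In these bulk libraries, fewer cells of a type and less RNA per cell cannot be told apart. Total counts ran from 14172118 to 36037616 per library. The labels name 3 batches: DMSO replicate 3 of both genotypes shared batch 1 with the 6 A1331852 libraries, DMSO replicates 1 and 2 formed batch 2, and A498 formed batch 3. Replicates 1 and 2 of a DMSO group stood close together (mean chi-square per gene of 3.16 in KO and 3.72 in WT), while pairs with replicate 3 gave 92.1 to 131. The labels do not say that replicates were separate cultures, and any p-value reflects library-to-library spread alone, possibly technical. SETD2 itself averaged 29.6 ± 2.65 CPM in KO and 63.3 ± 2.41 CPM in WT cells in DMSO (a gene's count scaled to the library total, SD, n = 3 each), and 45.6 ± 13.6 CPM in KO and 68.7 ± 6.74 CPM in WT cells in A1331852. In A498 it was at 39.0 and 55.4 CPM in the libraries labelled deficient, against 48.3 and 56.7 CPM in those labelled add-back (log2 fold change 0.00 ± 0.17, edgeR adjusted p = 0.991), so the SETD2 transcript did not separate the A498 groups. A mean of at least 1 CPM was reached by 6 of 7 renal carcinoma markers in every group. The exception was CA9, at most 0.763 CPM in any group mean and 0 in both WT groups of 786-O. The summed level of 5 endothelial markers was at most 0.988 CPM in any library, and that of 6 leukocyte markers 1.01 to 1.58 CPM in KO and 0.168 to 0.418 CPM in WT libraries of 786-O and 0.842 to 2.51 CPM in A498. The leukocyte marker CD14 was called higher in KO in both treatments, at 0.998 CPM in KO and 0.113 CPM in WT cells in DMSO. The 6 fibroblast markers summed to 9.93 to 11.1 CPM in KO and 11.9 to 14.3 CPM in WT libraries in DMSO, and to 4.15 to 4.92 CPM in KO and 9.29 to 14.3 CPM in WT libraries in A1331852, mostly from LUM and COL1A1. LUM was called lower in KO in both treatments, and PDGFRB in A1331852. The 6 markers of differentiated kidney epithelium summed to 23.7 to 37.4 CPM in KO and 24.2 to 76.2 CPM in WT libraries in DMSO, and to 4.04 to 6.77 CPM in KO and 27.5 to 37.5 CPM in WT libraries in A1331852. Most of it was CDH16, a cadherin of kidney tubules, while UMOD and AQP2 were at 0 in every group. The part of these markers in the laminin differences was not tested.

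Per transcript length, the 9 chains summed to 741 ± 89.9 TPM in KO and 718 ± 60.0 TPM in WT 786-O cells in DMSO (counts per exonic length, scaled to a common total, n = 3 each), and to 906 ± 190 TPM in KO and 665 ± 219 TPM in WT cells in A1331852. In A498 the sum was 475 ± 21.2 TPM in deficient and 474 ± 6.51 TPM in add-back cells (n = 2 each). LAMC1, the gamma chain shared by most laminins, was the most abundant chain in 5 of the 6 groups. The exception was KO cells in A1331852, where LAMB1 (276 ± 69.4 TPM) and LAMB3 (244 ± 22.7 TPM) stood above LAMC1 (175 ± 51.0 TPM). LAMB1 and LAMB3 there did not differ beyond their spread. In that group the beta chains made up 71.7% of the TPM of the 9 chains, against 52.9% in WT cells in A1331852, 53.8% in KO cells in DMSO and 46.8% in WT cells in DMSO. Beta chains made up 40.1% in A498 deficient and 41.7% in add-back cells.

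**Figure D1:**
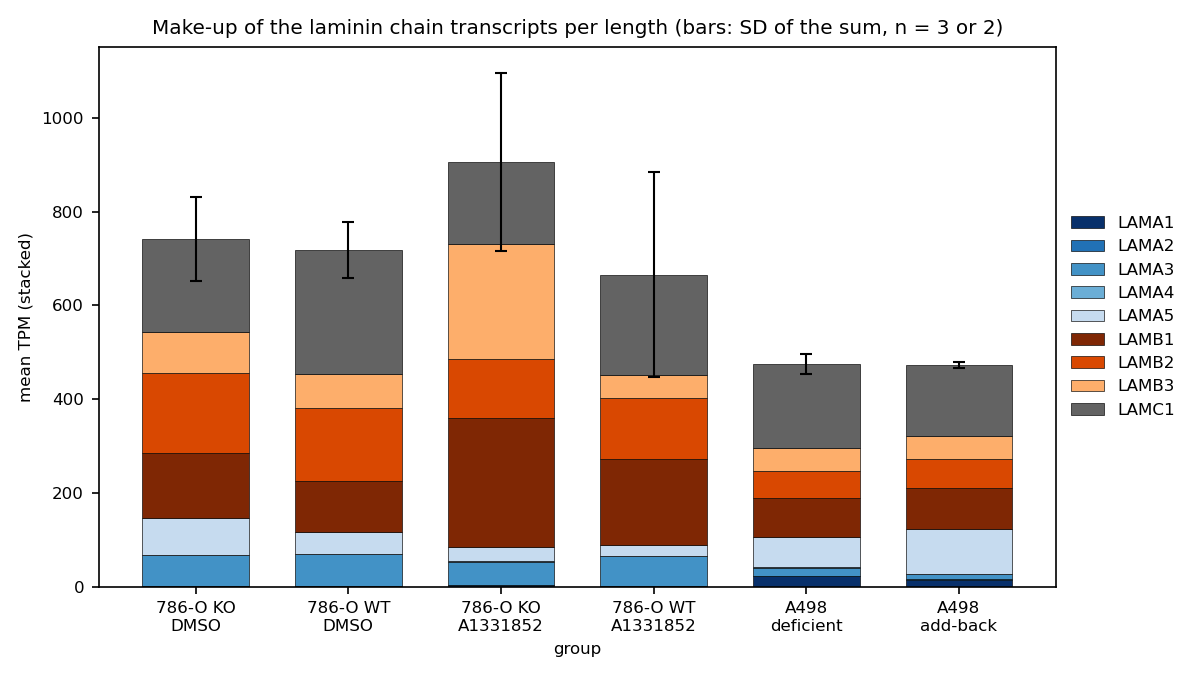
Stacked mean TPM of the 9 laminin chains in each group, with alpha chains in blue, beta chains in orange and brown and LAMC1 in grey, and with bars for the SD of the sum over libraries (n = 3, or 2 in A498). The LAMB3 segment is tallest in KO cells in A1331852 (244 TPM), and the LAMA1 segment is visible mainly in A498.

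The make-up of the alpha pool differed between the lines. In 786-O, LAMA3, the alpha chain that anchors epidermis through hemidesmosomes, and LAMA5, the main alpha chain of adult epithelial and glomerular basement membranes, together made up nearly the whole alpha pool. LAMA3 held 45.8% of alpha TPM in KO and 59.7% in WT cells in DMSO, and 57.0% in KO and 72.8% in WT cells in A1331852. LAMA5 held 52.8% in KO and 39.7% in WT cells in DMSO, and 36.9% in KO and 26.3% in WT cells in A1331852. These are group means. In DMSO replicate 3, of batch 1, LAMA3 held 54.3% in KO and 56.3% in WT cells, and LAMA5 44.3% and 43.3%. In A498, LAMA5 led with 59.7% in deficient and 78.3% in add-back cells, and LAMA1, the alpha chain of early embryonic and kidney tubule laminin, held 21.0% in deficient and 12.3% in add-back cells. LAMA1 was at most 4.09% of alpha TPM in any 786-O group. LAMA2, known from muscle and peripheral nerve, was at most 0.524% in any group. Within DMSO, the neighbours LAMB3 (87.8 ± 43.7 TPM) and LAMA5 (77.8 ± 21.1 TPM) of KO cells, and LAMB3 (72.2 ± 43.4 TPM) and LAMA3 (69.4 ± 5.26 TPM) of WT cells, did not differ beyond their spread.

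The start regions of the chains differ in base composition, and 4 are shown. LAMA4, LAMA5 and LAMB3 are among the chains that differed by genotype or drug in the comparisons below. LAMA3 is the usual partner of LAMB3. LAMA1, which had no window, and LAMA2 also differed there and are not shown. RefSeq (GRCh38.p14) gave 10 windows of 300 bases for 8 of the 9 genes, running from 250 bases before to 50 after a transcript start. Capitals mark matches on either strand to the GC box (GGGCGG), the TATA box (TATAAA) or the AP-1 site (TGANTCA). The interferon-stimulated response element core and the GAS element (TTCNNNGAA) were also searched on both strands, and in the 4 windows below they had no match.
LAMA3, chr18:23872770-23873069, plus strand: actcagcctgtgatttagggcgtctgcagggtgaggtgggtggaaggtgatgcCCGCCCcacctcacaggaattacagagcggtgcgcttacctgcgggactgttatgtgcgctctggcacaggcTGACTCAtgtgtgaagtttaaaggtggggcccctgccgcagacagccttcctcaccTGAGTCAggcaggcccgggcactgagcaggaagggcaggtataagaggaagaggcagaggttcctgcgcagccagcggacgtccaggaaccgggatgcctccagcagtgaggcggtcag
LAMB3, chr1:209651325-209651624, minus strand: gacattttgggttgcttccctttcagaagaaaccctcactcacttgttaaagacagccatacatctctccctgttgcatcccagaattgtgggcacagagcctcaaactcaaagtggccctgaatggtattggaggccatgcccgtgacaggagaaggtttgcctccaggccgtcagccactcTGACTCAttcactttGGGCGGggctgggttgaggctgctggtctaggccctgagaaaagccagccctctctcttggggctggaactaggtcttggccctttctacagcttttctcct
LAMA4, chr6:112254518-112254817, minus strand: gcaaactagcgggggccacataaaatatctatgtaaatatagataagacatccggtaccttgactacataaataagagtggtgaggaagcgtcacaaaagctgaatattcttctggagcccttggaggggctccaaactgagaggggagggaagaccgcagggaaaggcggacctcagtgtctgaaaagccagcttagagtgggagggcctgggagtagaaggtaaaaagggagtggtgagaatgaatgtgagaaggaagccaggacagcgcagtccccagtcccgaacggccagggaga
LAMA5, chr20:62367263-62367562, minus strand: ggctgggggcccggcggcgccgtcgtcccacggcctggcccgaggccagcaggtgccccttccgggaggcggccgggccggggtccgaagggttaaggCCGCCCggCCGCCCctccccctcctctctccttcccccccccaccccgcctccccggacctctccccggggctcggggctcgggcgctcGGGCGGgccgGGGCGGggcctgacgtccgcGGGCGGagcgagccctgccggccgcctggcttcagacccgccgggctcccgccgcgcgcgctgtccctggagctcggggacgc
The LAMA3 window held 2 AP-1 matches and the LAMB3 window 1, while 7.71% of 35116 promoter windows held at least 1. LAMB3 had 2 other RefSeq start windows, which held no AP-1 match. Among all 10 windows of the chains, only the 2 printed for LAMA3 and LAMB3 held one. The LAMA2 window held none of the 5 motifs searched. The LAMA3 window lies inside the gene, whose annotated span starts at 23689453. Which starts these cells use was not measured. The LAMA5 window was 82.7% G and C with 5 GC boxes, a motif present in 45% of promoter windows, whereas the LAMA4 window was 51.3% G and C and held none of the 5 motifs (median of all windows, 58.7%). A match describes letters only, and no binding was measured.

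The first question was which chains differ by SETD2 genotype in 786-O. In DMSO, only LAMA1 passed the test (1 of 9, while 18.5% of the 16260 genes tested were called and 8.29% were called higher), and it was higher in KO. In A1331852, 4 of 9 passed, all higher in KO (LAMA1, LAMA2, LAMA4 and LAMB3), against 28.2% of genes called in either direction and 13.2% called higher. The median log2 difference of the 9 chains was 0.27 in DMSO and 0.47 in A1331852, and that of all genes -0.02 and -0.01. All 9 passed the filter on low counts. Each difference is a log2 fold change ± standard error from edgeR's quasi-likelihood test, called at a Benjamini-Hochberg adjusted p under 0.05 over all genes. Its 95% interval, where given, is 1.96 standard errors either side, a normal approximation narrower than that test allows. For LAMB3 with A1331852 in WT cells this interval was 0.07 to 1.75, at an unadjusted edgeR p of 0.0555. The comparisons in DMSO and in A1331852 share no library, but both share libraries with the drug comparisons below.

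**Figure D2:**
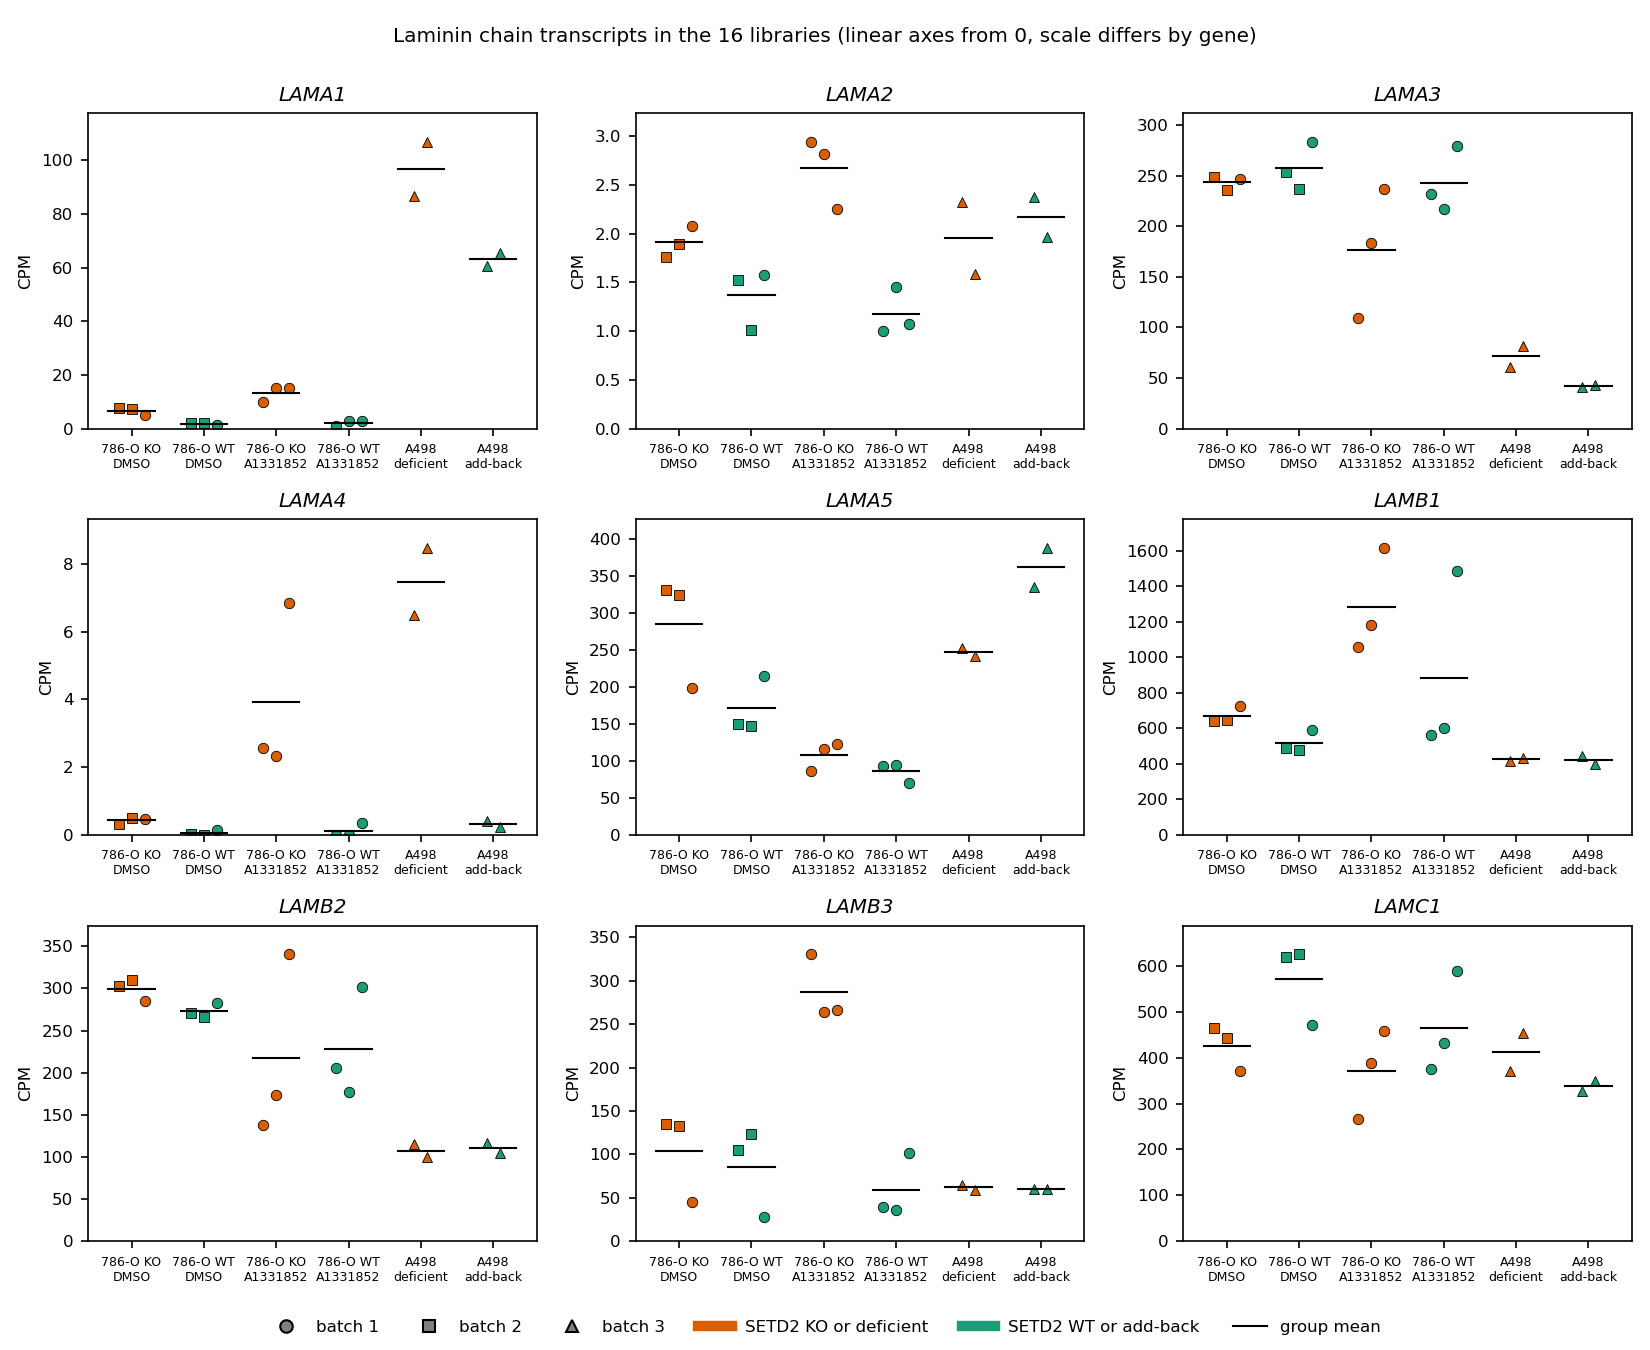
CPM of each laminin chain in each of the 16 libraries, by group, with SETD2 KO or deficient in orange and WT or add-back in green, marker shape for batch and a line for the group mean. Each panel has its own linear axis from 0. LAMB3 in KO cells in A1331852 (264 to 331 CPM) lies above every other library.

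LAMA1 (GRCh38 chr18:6941742-7117797, minus strand) was at 7.53, 7.15 and 5.18 CPM in KO cells in DMSO, against 2.14, 2.05 and 1.45 CPM in WT cells. In A1331852 it was at 10.1, 15.1 and 15.0 CPM in KO cells, against 0.824, 2.82 and 2.87 CPM in WT cells. Every KO library lay above every WT library of its treatment. The log2 fold change was 1.71 ± 0.34 in DMSO (edgeR adjusted p = 0.00500) and 2.55 ± 0.35 in A1331852 (edgeR adjusted p = 3.04e-04). In DMSO the difference on the log2(CPM + 0.5) scale was 1.54 in batch 1 and 1.60 in batch 2. The call in DMSO was lost when replicates 1 and 2 were summed to 1 library per genotype (1.71 ± 0.48, edgeR adjusted p = 0.0753) and within batch 1 alone (1.75 ± 0.77, edgeR adjusted p = 0.532), where each genotype has 1 DMSO library, assumed to vary like the A1331852 groups. The call in A1331852 held in all 14 alternatives tried.

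LAMA4 (chr6:112107931-112254939, minus strand), an alpha chain of blood vessel walls and mesenchyme, was scarce in 786-O and present almost solely in KO libraries. In DMSO it had 11, 16 and 9 counts in KO libraries, against 1, 0 and 2 in WT libraries. The ratio of summed counts, each over its summed library totals, was 11.1 (95% interval 3.50 to 56.2 from counting error only). In A1331852 LAMA4 had 47, 42 and 97 counts (2.56, 2.32 and 6.84 CPM) in KO libraries, against 0, 0 and 6 counts (0.359 CPM in replicate 3) in WT libraries. The same ratio there was 34.1 (15.4 to 94.2). No KO library overlapped a WT library in either treatment. edgeR's adjusted p was 0.069 in DMSO and 0.00111 in A1331852 (log2 fold change 5.01 ± 0.84). In DMSO the adjusted p was 0.0190 with the replicate number as a block in edgeR, which counts the close replicates 1 and 2 as separate pairs. Of 15 alternatives in DMSO, 11 left LAMA4 uncalled, and its fitted log2 fold change ran from 1.73 to 4.31. The ratio in DMSO was 27.0 without WT replicate 3 and 7.01 without WT replicate 2. In A1331852 it was at least 47.7 without WT replicate 3, against a floor of 3 counts over the group, 20.7 without WT replicate 2 and 22.7 without KO replicate 3. The fitted log2 fold change there was 9.40 without WT replicate 3. The endothelial marker list summed to 0.320 to 0.502 CPM in KO and 0.139 to 0.329 CPM in WT libraries in DMSO, and to 0.491 to 0.988 CPM in KO and 0.0589 to 0.239 CPM in WT libraries in A1331852. None of its 5 markers reached a mean of 1 CPM in any group, and its part in the LAMA4 difference was not tested.

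LAMA2 (chr6:128883138-129516566, plus strand) was at 1.76, 1.90 and 2.08 CPM in KO cells in DMSO, against 1.53, 1.01 and 1.58 CPM in WT cells. In A1331852 it was at 2.95, 2.82 and 2.26 CPM in KO cells, against 1.00, 1.46 and 1.08 CPM in WT cells. The groups did not overlap in either treatment, and the difference passed in A1331852 (1.12 ± 0.26, edgeR adjusted p = 0.00802) but not in DMSO (0.37 ± 0.25, edgeR adjusted p = 0.339). LAMA3 (chr18:23689453-23956222, plus strand) was at 249, 236 and 247 CPM in KO cells in DMSO, against 253, 237 and 284 CPM in WT cells. In A1331852 it was at 109.7, 184 and 237 CPM in KO cells, against 232, 217 and 280 CPM in WT cells. The groups overlapped in both treatments. The difference in A1331852 was -0.52 ± 0.21 (edgeR adjusted p = 0.0894), and -0.57 ± 0.14 with the replicate number as a block (edgeR adjusted p = 0.00852). It was -0.78 ± 0.20 without KO replicate 3 (edgeR adjusted p = 0.0131). Of 14 alternatives, 11 left LAMA3 uncalled in A1331852, and its value ran from -0.78 to -0.28.

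LAMA5 (chr20:62307955-62367312, minus strand) gave opposite pictures in the batches of the DMSO libraries. It was at 331, 324 and 199 CPM in KO cells, against 151, 147 and 215 CPM in WT cells. Replicates 1 and 2, of batch 2, were higher in KO, while replicate 3, of batch 1, was slightly lower in KO. The difference on the log2(CPM + 0.5) scale was 1.14 in batch 2 and -0.12 in batch 1. Pooled, it was 0.62 ± 0.22 and did not pass (edgeR adjusted p = 0.0713). Without KO replicate 3 it was 1.06 ± 0.18 (edgeR adjusted p = 0.00472), and without WT replicate 3 it was 1.01 ± 0.18 (edgeR adjusted p = 0.00574). In A1331852 LAMA5 was at 86.1, 116 and 123 CPM in KO cells, against 93.1, 94.4 and 69.7 CPM in WT cells, with groups that overlapped and a difference of 0.29 ± 0.22 (edgeR adjusted p = 0.351).

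Among the beta chains, LAMB3 passed the test between genotypes in A1331852, and none passed in DMSO (LAMB1, LAMB2 and LAMB3 tested). LAMB3 (chr1:209614870-209652425, minus strand) encodes the beta chain that pairs with LAMA3 in the laminin of hemidesmosomes. It was at 331, 264 and 267 CPM in KO cells in A1331852, against 39.7, 35.4 and 101 CPM in WT cells. Every KO library lay above every WT library, and WT replicate 3 stood above the other WT libraries. The log2 fold change was 2.23 ± 0.35 (edgeR adjusted p = 7.08e-04), and the call held in all 14 alternatives. In DMSO it was at 135, 132 and 45.1 CPM in KO cells, against 105, 123 and 27.8 CPM in WT cells. Replicate 3 was far below replicates 1 and 2 in both genotypes, and the groups overlapped. The difference in DMSO was 0.27 ± 0.33 (edgeR adjusted p = 0.636), with 0.69 in batch 1 and 0.23 in batch 2 on the log2(CPM + 0.5) scale.

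LAMB1 (chr7:107923799-108003213, minus strand), the widely used beta chain, was at 640.3, 645 and 726 CPM in KO cells in DMSO, against 492, 477 and 591 CPM in WT cells. In A1331852 it was at 1058, 1183 and 1617 CPM in KO cells, against 563, 599.9 and 1486 CPM in WT cells. WT replicate 3 stood with the KO libraries, so the groups overlapped in A1331852 and not in DMSO. The difference in A1331852 was 0.47 ± 0.32 (edgeR adjusted p = 0.302). It was 0.62 ± 0.17 with the replicate number as a block (edgeR adjusted p = 0.0146) and 1.12 ± 0.16 without WT replicate 3 (edgeR adjusted p = 2.27e-04). Of 14 alternatives, 11 left LAMB1 uncalled in A1331852, and its value ran from 0.21 to 1.12. LAMB2 (chr3:49121114-49133118, minus strand), the beta chain of glomeruli and neuromuscular junctions, differed by 0.02 ± 0.28 in DMSO (95% interval -0.53 to 0.58) and by -0.14 ± 0.28 in A1331852 (-0.69 to 0.42). Its levels in DMSO were 303, 309 and 286 CPM in KO and 270.4, 267 and 283 CPM in WT cells. In A1331852 they were 138, 173 and 341 CPM in KO and 206, 177 and 302 CPM in WT cells, with replicate 3 highest in both genotypes.

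In CPM, LAMC1 (chr1:183023420-183145592, plus strand) was lower in every KO library than in any WT library in DMSO. It was at 465, 442 and 371 CPM in KO cells, against 619.6, 626 and 472 CPM in WT cells. TMM factors over all 16 libraries were 0.929 and 0.927 for KO replicates 1 and 2 and 1.04 for WT replicate 3. Scaled by them, these KO libraries lay above that WT library. In A1331852 LAMC1 was at 266, 389 and 458 CPM in KO cells, against 374, 433 and 588 CPM in WT cells, and the groups overlapped. The differences were -0.53 ± 0.20 in DMSO (edgeR adjusted p = 0.0930) and -0.39 ± 0.20 in A1331852 (edgeR adjusted p = 0.174). With the replicate number as a block they were -0.53 ± 0.10 (edgeR adjusted p = 0.00325) and -0.39 ± 0.10 (edgeR adjusted p = 0.0117). LAMC1 stayed uncalled in 12 of 15 alternatives in DMSO (-0.58 to -0.43 over the 15). In A1331852 it stayed uncalled in 13 of 14 (-0.56 to -0.16 over the 14). The replicate block took the count of chains called to 3 in DMSO, where it called 28.6% of all genes, and to 7 in A1331852, where it called 38.6%.

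The next comparison asked which chains respond to A1331852. In KO cells 3 of 9 chains passed, LAMB3 and LAMA1 higher and LAMA5 lower in A1331852, while 13.5% of genes were called, 6.46% higher and 7.08% lower. In WT cells 0 of 9 passed with edgeR, while 0.141% of genes (23 of 16260) were called. Unadjusted, LAMA5 alone of the chains had a p under 0.05 in WT cells (0.00206), where 12.8% of genes did, and DESeq2 called LAMA5 there. All A1331852 libraries were of batch 1, so the batch term is estimated from the DMSO libraries, of which replicate 3 of each genotype is the only one of batch 1. Beside these chains, CDH16 averaged 4.49 ± 1.28 CPM in A1331852 and 27.9 ± 7.33 CPM in DMSO in KO cells (-3.33 ± 0.29, edgeR adjusted p = 2.93e-04), and its response in KO cells minus that in WT cells was -2.32 ± 0.33 (edgeR adjusted p = 0.0132).

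LAMB3 in KO cells was 2.87 ± 0.44 higher in A1331852 than in DMSO on the log2 scale (edgeR adjusted p = 0.00263). Its 3 A1331852 libraries (331, 264 and 267 CPM) lay above all 3 DMSO libraries (135, 132 and 45.1 CPM). Within batch 1 alone, where the DMSO group is 1 library assumed to vary like the A1331852 groups, the difference was 2.72 ± 0.63 (edgeR adjusted p = 0.113), and without the batch term it was 1.37 ± 0.58 (edgeR adjusted p = 0.153). In WT cells the A1331852 libraries (39.7, 35.4 and 101 CPM) overlapped the DMSO libraries (105, 123 and 27.8 CPM), with a difference of 0.91 ± 0.43 (edgeR adjusted p = 0.404) that turned to -0.69 ± 0.58 without the batch term. The response of LAMB3 in KO cells minus that in WT cells was 1.96 ± 0.47 (edgeR adjusted p = 0.116, unadjusted 0.00140), when 48 genes (0.295%) and 0 of 9 chains were called. Unadjusted, 10.8% of genes had a p under 0.05 for this difference. With the replicate number as a block, the value was 2.14 ± 0.40 (edgeR adjusted p = 0.0317), and LAMB3 was then the 1 chain called, with 1.81% of genes called. DESeq2 also called it (adjusted p = 0.00618). Without WT A1331852 replicate 3, the WT library highest in LAMB3, it was 2.65 ± 0.21 (edgeR adjusted p = 1.64e-04). Most settings did not call this difference: 16 of 20 alternatives left it uncalled, and its value ran from 1.61 to 2.65 over the 20.

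LAMA5 in KO cells was at 86.1, 116 and 123 CPM in A1331852, against 331, 324 and 199 CPM in DMSO. In WT cells it was at 93.1, 94.4 and 69.7 CPM in A1331852, against 151, 147 and 215 CPM in DMSO. In both genotypes each A1331852 library lay below each DMSO library. The difference was -1.31 ± 0.27 in KO cells (edgeR adjusted p = 0.00996) and -0.98 ± 0.25 in WT cells (edgeR adjusted p = 0.157), and the KO response minus the WT response was -0.33 ± 0.31 (95% interval -0.93 to 0.27). In KO cells the call was lost within batch 1, again with 1 DMSO library (-0.83 ± 0.24, edgeR adjusted p = 0.188), and with DMSO replicates 1 and 2 summed (-1.18 ± 0.29, edgeR adjusted p = 0.0548). Without KO DMSO replicate 3 the value was -2.09 ± 0.26, and in WT cells it was -0.11 ± 0.27 without WT DMSO replicate 3. LAMA1 in KO cells was 1.42 ± 0.42 higher in A1331852 (edgeR adjusted p = 0.0437). That call was lost without DMSO replicate 1, 2 or 3 or A1331852 replicate 2 or 3 of KO cells (edgeR adjusted p = 0.0788, 0.0834, 0.280, 0.102 and 0.0637). It was also lost with upper-quartile scaling (edgeR adjusted p = 0.0516), within batch 1 (0.383), with DMSO replicates 1 and 2 summed (0.139) and without the batch term, where the value was 0.93 ± 0.38 (edgeR adjusted p = 0.138). LAMA4 in KO cells was 2.75 ± 1.00 higher in A1331852 than in DMSO (edgeR adjusted p = 0.0894). Over 14 alternatives this value ran from 0.55 to 3.77, and 11 of them left it uncalled. The ratio of summed counts over summed library totals, which takes no account of batch, was 8.96 (6.24 to 13.2, counting error only). It was 5.95 without A1331852 replicate 3.

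**Figure D3:**
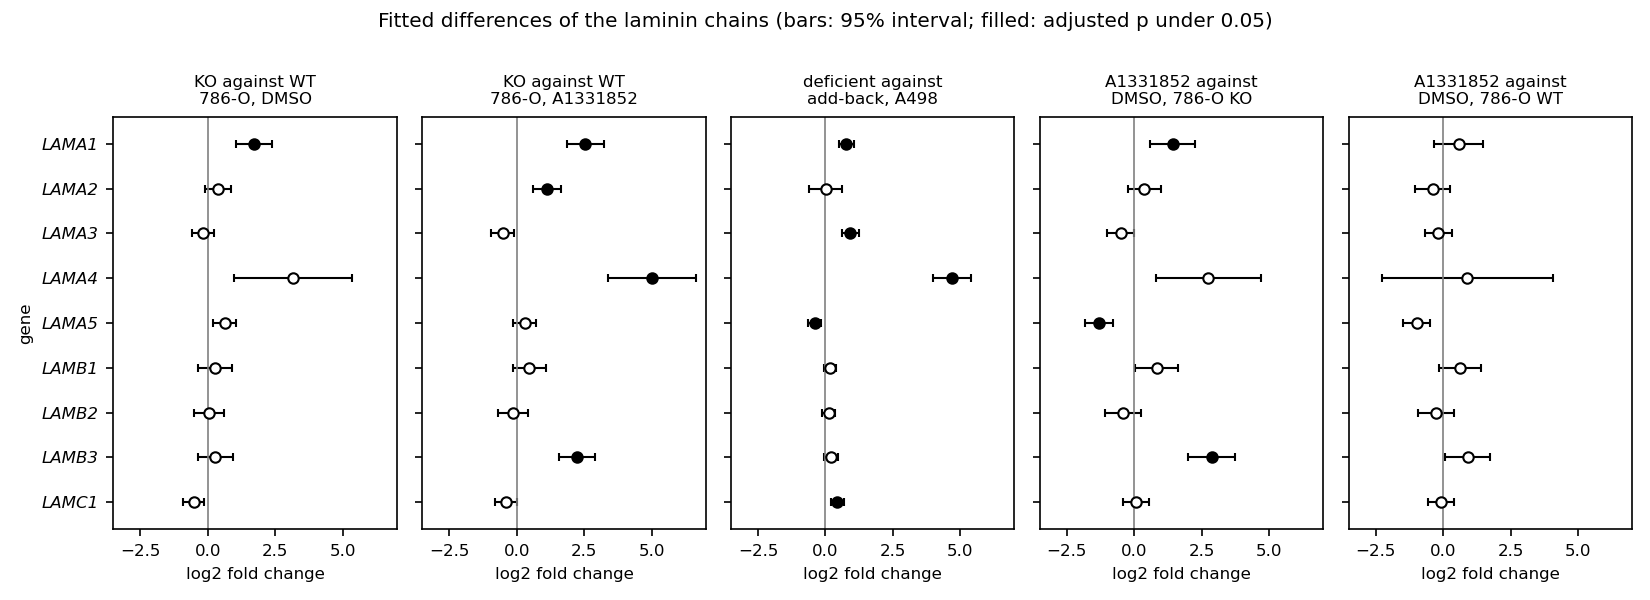
Log2 fold change of each laminin chain in 5 comparisons, with bars for the 95% interval and filled points for an edgeR adjusted p under 0.05. The bars are 1.96 standard errors either side, narrower than edgeR's test allows. A bar clear of 0 therefore need not have an unadjusted p under 0.05. LAMA1 and LAMA4 lie to the right of 0 in the 3 comparisons by SETD2 state, LAMA4 in DMSO without passing, and LAMB3 lies far right in KO cells in A1331852 (2.23 over WT and 2.87 over DMSO).

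In A498, 5 of 9 chains passed between the libraries labelled deficient and add-back (LAMA1, LAMA3, LAMA4 and LAMC1 higher, LAMA5 lower), while 30.2% of the 15424 genes tested were called, 15.1% in each direction. LAMA4 was at 106 and 139 counts (6.48 and 8.47 CPM) in deficient libraries, against 7 and 4 counts (0.416 and 0.225 CPM) in add-back libraries. The ratio was 23.6 (95% interval 12.9 to 47.8, counting error only) and the log2 fold change 4.68 ± 0.35 (edgeR adjusted p = 3.65e-07). LAMA4 in A498 deficient cells exceeded its level in every 786-O library except KO A1331852 replicate 3 (6.84 CPM), which lay between the deficient libraries. The 6 fibroblast markers summed to 47.0 to 63.3 CPM in deficient and 46.6 to 52.3 CPM in add-back libraries, nearly all from COL1A1 (54.4 ± 11.6 CPM in deficient and 47.7 ± 4.17 CPM in add-back cells). LUM and DCN averaged 0 and 0.0916 CPM in deficient cells, and 1 marker of the list was called lower and 0 higher. The part of this list in the LAMA4 difference was not tested.

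LAMA1 was at 86.6 and 107 CPM in deficient libraries, against 60.7 and 65.6 CPM in add-back libraries (0.77 ± 0.14, edgeR adjusted p = 0.00109). LAMA3 was at 61.3 and 82.1 CPM in deficient libraries, against 41.3 and 43.4 CPM in add-back libraries (0.92 ± 0.16, edgeR adjusted p = 5.91e-04). Neither gene overlapped between the groups. LAMC1 was at 370.2 and 454 CPM in deficient libraries, against 328 and 349 CPM in add-back libraries (0.44 ± 0.13, edgeR adjusted p = 0.0186). LAMA5 was at 253 and 242 CPM in deficient libraries, against 336 and 388 CPM in add-back libraries (-0.39 ± 0.12, edgeR adjusted p = 0.0242). These groups did not overlap either. The LAMC1 and LAMA5 calls were each lost without add-back replicate 1 (edgeR adjusted p = 0.213 and 0.0839) and without add-back replicate 2 (0.0935 and 0.434), and both were lost when all 16 libraries shared 1 estimate of spread (0.214 and 0.346). The LAMA1 call was lost there too (0.0858). The LAMC1 value was 0.28 without deficient replicate 2, with the call kept (edgeR adjusted p = 0.0283). LAMA3 and LAMA4 kept their calls in all 10 alternatives. LAMB1 was at 416 and 434 CPM in deficient libraries, against 443 and 402 CPM in add-back libraries. LAMB3 was at 65.2 and 59.3 CPM in deficient libraries, against 60.3 and 59.6 CPM in add-back libraries, within the spread of a pair. LAMA2 (0.00 ± 0.31), LAMB1, LAMB2 and LAMB3 did not pass, and the beta chains had 95% intervals, in that order, of -0.06 to 0.39, -0.14 to 0.37 and -0.05 to 0.47.

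The SETD2 comparison of A498 was then set against that of 786-O in DMSO in 1 fit over 16 libraries. LAMA3 (1.13 ± 0.33, edgeR adjusted p = 0.0319) and LAMC1 (1.00 ± 0.30, edgeR adjusted p = 0.0381) differed between the lines, 2 of 9 chains, while 13.2% of the 17868 genes tested were called, 7.1% with the higher A498 value. Both genes were higher in A498 deficient cells than in add-back cells, whereas their 786-O differences in DMSO were -0.18 ± 0.21 and -0.53 ± 0.20. Neither 786-O difference passed. Both calls between the lines were lost with upper-quartile scaling (edgeR adjusted p = 0.0526 for LAMA3 and 0.0606 for LAMC1). Of 16 alternatives, 11 lost the LAMA3 call and 12 the LAMC1 call. LAMA5 differed by -0.98 ± 0.31 (edgeR adjusted p = 0.0506) and LAMA1 by -0.90 ± 0.41 (edgeR adjusted p = 0.170). With the replicate number as a block within line and treatment, LAMA5 (-0.98 ± 0.32, edgeR adjusted p = 0.0432) and LAMA1 (-0.91 ± 0.26, edgeR adjusted p = 0.0259) were called as well, 4 of 9 chains with 20.7% of genes called. LAMA4 differed by 1.56 ± 1.89 between the lines, and its interval of -2.15 to 5.27 is too wide to tell the sizes apart.

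Genes whose proteins bind, neighbour or process laminins were examined as 6 lists. Over all genes tested, 18.5% were called between KO and WT in DMSO (8.29% higher, 10.2% lower), 28.2% in A1331852 (13.2% higher, 15% lower), 13.5% with A1331852 in KO cells and 30.2% in A498. Counts of a few genes in lists of this size are given as descriptions beside those shares. The lists were tested in the main fit only. With DMSO replicates 1 and 2 summed, genes called between KO and WT in DMSO fell from 3001 to 739. Of 13 laminin receptors, 3 passed in KO against WT in DMSO, all higher: ITGA1, ITGA6 and ITGA7, integrin alpha chains. ITGA6 averaged 79.7 ± 4.75 CPM in KO and 46.0 ± 8.30 CPM in WT cells in DMSO, and 146 ± 15.7 CPM in KO and 60.9 ± 14.4 CPM in WT cells in A1331852. It rose by 1.13 ± 0.21 with A1331852 in KO cells (edgeR adjusted p = 0.00666). In A1331852 the receptors split into 3 higher and 4 lower in KO, and the lower ones included ITGB4, the beta-4 partner of ITGA6 in hemidesmosomes (-2.51 ± 0.66, edgeR adjusted p = 0.0145), at 1.81 ± 1.49 CPM in KO and 9.48 ± 7.66 CPM in WT cells. The medians of the 13 receptors were -0.17 in DMSO and 0.13 in A1331852. In A498, 5 receptors were higher and 3 lower in deficient cells. ITGA3, which pairs with beta-1 as a main receptor for laminins with LAMA3 or LAMA5, averaged 1051 ± 8.19 CPM in deficient and 553 ± 25.1 CPM in add-back cells (edgeR adjusted p = 5.41e-06). The syndecan SDC2, a heparan sulphate proteoglycan, averaged 19.4 ± 0.562 CPM in deficient and 156 ± 6.68 CPM in add-back cells (edgeR adjusted p = 6.29e-09).

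Of 17 other basement membrane proteins, 12 were tested in 786-O. In DMSO 0 were higher and 3 lower in KO, against 8.29% and 10.2% of all genes. COL18A1, the collagen that yields endostatin, averaged 676 ± 75.0 CPM in KO and 1233 ± 121 CPM in WT cells in DMSO (-0.98 ± 0.21, edgeR adjusted p = 0.00677). NID2, a nidogen that links laminin to collagen IV, was at 0.194 ± 0.0732 CPM in KO and 1.64 ± 0.549 CPM in WT cells (-3.24 ± 0.40, edgeR adjusted p = 2.76e-04). TINAGL1 was the third (-1.01 ± 0.25, edgeR adjusted p = 0.0142). In A1331852, 4 were lower in KO and 0 higher, against 15% and 13.2% of all genes. The list's median there was -0.55. With A1331852 in KO cells 3 were lower, among them COL4A1, a chain of the main collagen IV network (-0.71 ± 0.21, edgeR adjusted p = 0.0473). In A498, 14 were tested, and 3 were higher and 2 lower in deficient cells. TINAGL1 averaged 1.74 ± 0.479 CPM in deficient and 65.6 ± 0.963 CPM in add-back cells, and PXDN, the peroxidase that crosslinks collagen IV, 870.5 ± 128 CPM in deficient and 305 ± 16.7 CPM in add-back cells.

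The 7 hemidesmosome components all passed the filter. In KO against WT, 1 was higher and 0 lower in DMSO, and 3 were higher and 1 lower in A1331852. In A498, 1 was higher and 2 lower in deficient cells. With A1331852 in KO cells 3 were higher and 0 lower, while 6.46% of all genes were called higher. These were ITGA6, COL17A1 and COL7A1. COL17A1, a transmembrane collagen of hemidesmosomes, averaged 5.20 ± 1.89 CPM in A1331852 and 1.01 ± 0.325 CPM in DMSO in KO cells (2.11 ± 0.46, edgeR adjusted p = 0.0121). Of 5 tested netrins, secreted guidance proteins with laminin-type domains, 3 were higher in KO in both treatments, and NTN1 averaged 5.82 ± 2.67 CPM in KO and 0.435 ± 0.157 CPM in WT cells in DMSO (edgeR adjusted p = 8.09e-06). In A498, NTN1 was lower in deficient cells, at 1.80 ± 0.220 CPM, against 12.2 ± 0.619 CPM in add-back cells, and its change differed between the lines (-6.19 ± 0.37, edgeR adjusted p = 4.28e-08). Of 8 tested laminin-cleaving proteases, 2 were lower and 0 higher in KO in DMSO, and MMP2, a gelatinase, averaged 0.0488 ± 0.0457 CPM in KO and 8.32 ± 3.16 CPM in WT cells (edgeR adjusted p = 1.00e-06). In A1331852, 2 were lower and 2 higher. Of 9 tested enzymes that glycosylate dystroglycan for laminin binding, 1 was higher in KO in DMSO and 2 in A1331852, with 0 lower. RXYLT1 was called in both. In A498, 1 enzyme was higher and 3 lower in deficient cells.

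Genes with the most similar pattern over the 6 group means were sought among 11225 genes of at least 5 CPM on average, by the root mean square difference of log2(CPM + 0.5) after each gene's mean was removed. For LAMB3 these were SAMD9L (0.174), IL7R (0.226) and SAMD9 (0.233). SAMD9L averaged 130.2 ± 58.4 CPM in KO and 26.4 ± 3.17 CPM in WT cells in A1331852, and 50.9 ± 12.7 CPM in KO and 26.6 ± 4.54 CPM in WT cells in DMSO. For LAMA4 they were CCN3 (0.456), LURAP1L (0.468) and ANPEP (0.663), all higher in A498 deficient cells, with CCN3 at 27.1 ± 2.10 CPM in deficient and 6.14 ± 0.45 CPM in add-back cells. For LAMA1 they were FAM43A, SORCS2 and KYNU, and for LAMA5 ADCY9, CASTOR2 and DTX4. LAMB1 lay nearest ZNF519, EIF5A2 and TIMP1, and LAMC1 nearest RBM15B, VCL and SRPRA. LAMB2 lay nearest SAPCD2, ZNF775 and RXRB, LAMA3 nearest PHKA2, SLC1A4 and CCDC106, and LAMA2 nearest ULK3, MTCH2 and ZBTB39. The 6 points share libraries and depth and were not adjusted for batch, so these distances are descriptions. LAMA4 and LAMA2, at 1.82 and 1.85 CPM on average, lie below the 5 CPM set for the neighbours.

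**Figure D4:**
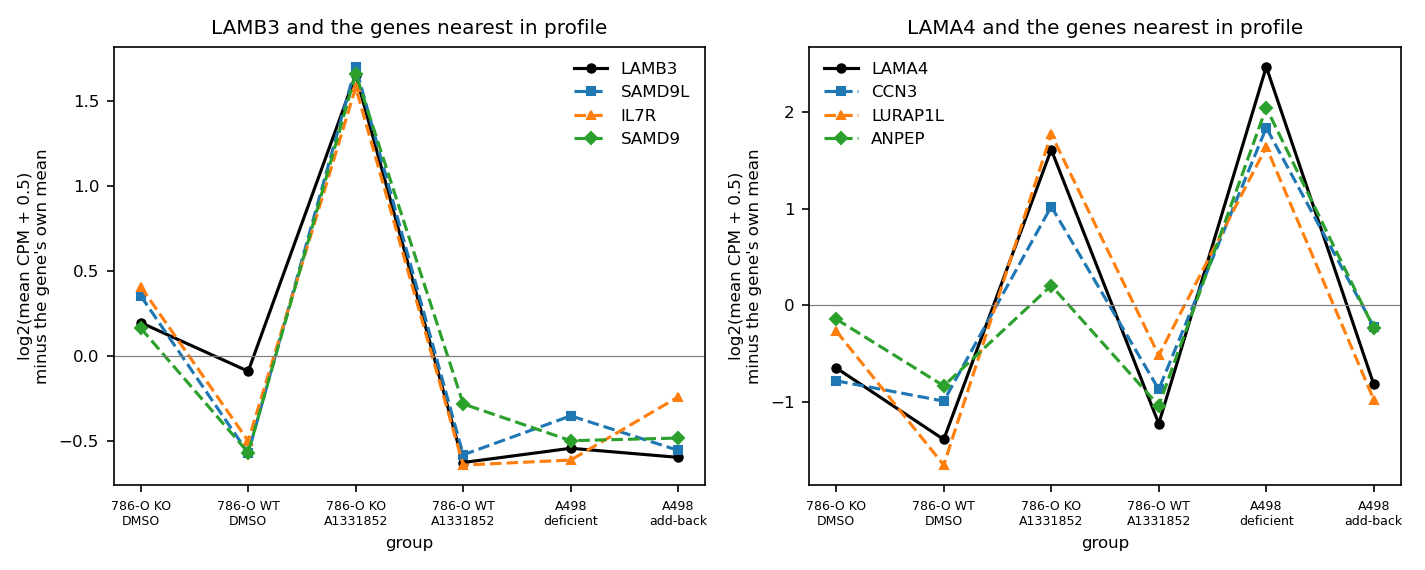
Log2(mean CPM + 0.5) over the 6 groups for LAMB3 (left) and LAMA4 (right), each with its 3 nearest genes and each gene's own mean subtracted. LAMB3, SAMD9L, IL7R and SAMD9 all peak in KO cells in A1331852, and LAMA4 and its neighbours peak in A498 deficient cells or KO cells in A1331852.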

How the data were processed

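Each library had a deposited table of raw counts. Per the file headers, the counts came from featureCounts 1.5.0-p3 run on read pairs, with strand setting 2, exonic features, grouping by gene name and GENCODE release 41. Per the submitters' processing notes, reads were aligned with STAR to GRCh38, and MultiQC 1.7 and DESeq2 were used. Strand-aware counting kept LAMB1 and LAMA5 apart from DLD and ADRM1, which overlap them on the opposite strand.

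From these counts, CPM and TPM (by exonic length from the count tables) were computed here, and edgeR 4.0.16 (R 4.3.3) tested the differences, using TMM scaling, a low-count filter by group (minimum count of 10), the quasi-likelihood test, Benjamini-Hochberg adjustment over all genes tested and a threshold of 0.05. One fit with a batch term covered the 12 libraries from 786-O, another the 4 from A498, and a further fit all 16, for the difference between lines. The script was tested on simulated data. Depth is 14172118 to 36037616 counts per library. Counting intervals (95%, exact) and floors (3 counts) cover counting error only, since molecular identifiers were not used.

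Groups, replicate numbers and batches came from the labels. Library deviations of the same replicate number had KO to WT correlations of 0.569 to 0.762 (DMSO) and 0.271 to 0.505 (A1331852), so the numbers were taken to pair KO with WT. In DMSO this reflected replicate 3 against 1 and 2, since unlike numbers 1 and 2 correlated at 0.567 and 0.601. Between A1331852 and DMSO the correlations were -0.0478 to 0.0547, and the numbers paired nothing. Alternatives were other scalings, DESeq2 1.42.0, no low-count filter, no batch term, single batches, the replicate block, leaving out each library, and, chosen after seeing the data, DMSO replicates 1 and 2 summed. The members and lists were chosen with earlier results of these data known. Named genes were the 9 chains, SETD2, up to 3 called genes per list and comparison with the smallest adjusted p, and the 3 nearest in profile. Only some of the genes this rule gives are printed, and COL1A1, DCN, UMOD, AQP2 and CA9 were named after their values were seen. Other laminin rows are not reported here.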

Additional observations from a re-analysis of the deposited data

Results flagged for a closer look

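For LAMA3 and LAMC1 the comparison by SETD2 label differed between the lines, though neither chain passed in 786-O in DMSO. The A498 log2 difference (deficient minus add-back) exceeded the 786-O difference in DMSO (KO minus WT) by 1.13 ± 0.33 for LAMA3 (edgeR adjusted p = 0.0319) and by 1.00 ± 0.30 for LAMC1 (edgeR adjusted p = 0.0381). In CPM, LAMC1 was higher in both A498 deficient libraries than in both add-back libraries. It was lower in all 3 KO than in all 3 WT libraries of 786-O in DMSO in CPM, but those groups overlapped after TMM scaling. Each call was lost when any one library of the KO DMSO, WT DMSO or A498 groups was left out, except LAMA3 without A498 deficient replicate 1. Both were also lost with upper-quartile scaling (edgeR adjusted p = 0.0526 for LAMA3 and 0.0606 for LAMC1) and with DMSO replicates 1 and 2 summed (0.102 and 0.138). Line and batch 3 cannot be told apart.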

How the results depend on the processing

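Of 927 values of single chains under alternatives, 799 kept their direction and side of the threshold, 46 lost the call, 50 gained one and 32 changed sign, none of them a called value. The cause was not tested except where a setting leaves fewer libraries. Chains (and genes) called moved as follows. In KO against WT in DMSO, DESeq2 gave 3 chains, no low-count filter 4, no batch term 1490 genes, batch 1 alone 0 chains and 53 genes, batch 2 alone 7 and 9276, DMSO replicates 1 and 2 summed 0 and 739, and leaving out 1 library 1 to 2 chains and 1614 to 1777 genes. In A1331852, 2489 genes were called without the batch term and 2376 within batch 1. For A1331852 in WT cells, DESeq2 gave 1 chain and 415 genes, no filter 3 and 909, no batch term 6 genes, batch 1 and the summed replicates 0 genes, and leaving out 1 library 0 to 64 genes. For A1331852 in KO cells, no filter gave 5 chains, batch 1 alone 0 and 85 genes, the summed replicates 1 and 656, and leaving out 1 library 781 to 2602 genes. For the difference of these responses, DESeq2 gave 1 and 371, no filter 1 and 647, no batch term 7 genes, batch 1 and the summed replicates 0 genes, and leaving out 1 library 0 to 2 chains and 0 to about 5.0e+02 genes. In A498, the fit over all 16 libraries gave 2 and 2361, and leaving out 1 library 3 to 5 and 2246 to 6272. Between lines, upper-quartile scaling gave 1 chain (LAMA5, with LAMA3 and LAMC1 lost), no filter 4, the summed replicates 0 and 1036, and leaving out 1 library 0 to 1 and 1151 to 1782.

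With the replicate block within a treatment, KO against WT gave 3 chains and 4646 genes in DMSO and 7 chains and 6278 genes in A1331852, and the difference of responses 1 and 294. A block shared by treatments, whose numbers pair nothing, gave 3 and 2831 in WT and 5 and 4311 in KO cells, with sign changes for LAMA3 (0.18), LAMB2 (0.32) and LAMC1 (0.27) in WT and LAMB2 (0.11) in KO cells. The block within line and treatment gave 4 and 3692 between lines, and in A498 LAMA2 was -0.0051.

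Other sign changes were LAMA2 in A498 with upper-quartile scaling (-0.039), A1331852 without the batch term for LAMB3 in WT (-0.69) and LAMC1 in KO cells (-0.28), and within batch 1 LAMA5 (-0.20) and LAMB2 (-0.071) between KO and WT in DMSO, LAMA4 for A1331852 in WT cells (-0.23) and LAMA5 for the difference of responses (0.49). LAMB2 in DMSO was -0.0037 with replicates summed. Leaving out 1 library, ranges that crossed 0 were, for A1331852 in WT cells, LAMA4 -3.46 to 2.21, LAMB1 -0.024 to 0.91 and LAMC1 -0.30 to 0.12, and in KO cells LAMC1 -0.094 to 0.26. For the difference of responses they were LAMB1 -0.073 to 0.86, LAMB2 -0.65 to 0.13 and LAMC1 -0.056 to 0.38. The rest were LAMB2 between KO and WT in A1331852 (-0.60 to 0.15), LAMA2 in A498 (-0.28 to 0.25) and LAMB3 between lines (-0.15 to 0.10). Depth limits LAMA4, with at most 2 counts in any WT DMSO library.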
